A study of Mus musculus with 34 samples.

Results

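QKO muscle was compared directly with MIGIRKO muscle over all genes. By their labels, QKO mice lacked the insulin receptor, the IGF-1 receptor and the transcription factors FoxO1, FoxO3 and FoxO4 in muscle, and MIGIRKO mice lacked the 2 receptors alone. The comparison asks what loss of the 3 FoxO factors adds once both receptors are gone. The 7 QKO and 6 MIGIRKO libraries were taken by genotype label and are 13 of the 34 libraries of the series. Each was made with a directional kit from powdered quadriceps and gastrocnemius, mixed. The labels do not say that each library is a separate mouse, so p-values rest on the spread between libraries, estimated over all 34.

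Both lines were made with floxed alleles and Acta1-Cre, which is active in skeletal muscle fibers, so the other cells of the muscle keep the genes. The mice were male, on a mixed background of C57Blk6, C57Blk6J and 129 strains, and their age is not stated. QKO and MIGIRKO were kept as separate colonies, and genotype and colony cannot be told apart in a direct comparison. The floxed littermate controls of the same colonies, Qlox (n = 2) and IRIGFRlox (n = 3), were compared for what differs without Cre. The library numbers in the labels fall into 6 runs set apart by larger gaps, and the labels do not name these runs as batches. No run holds both Qlox and IRIGFRlox libraries, so colony and run cannot be told apart in the controls. The mitochondrial enzyme gene Nnt varied too. MIGIRKO and IRIGFRlox were reported as heterozygous, and QKO and Qlox as a mixture of homozygous and heterozygous animals. Nnt was 26.9 to 150.2 CPM in QKO (median 84.8), against 32.5 to 143 CPM in MIGIRKO (median 75.4), and its ranges overlapped almost fully (log2 difference 0.15 ± 0.36, adjusted p = 0.79).

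Insulin and IGF-1 act on muscle through their receptors, PI3-kinase and the kinase Akt. Akt phosphorylates the FoxO factors and so keeps them out of the nucleus. When the receptors are lost, FoxO factors stay in the nucleus and turn on genes of atrophy, autophagy and growth arrest, and muscle-specific loss of both receptors is known for muscle wasting that FoxO loss relieves.

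Library totals were 1499025 to 6605874 counts in QKO and 4652877 to 5969877 in MIGIRKO. Values are CPM, counts scaled to a common library size after adjusting the totals by the trimmed mean of M values (TMM). The TMM factor was 0.94 ± 0.096 (SD, n = 7) in QKO and 1.234 ± 0.054 (SD, n = 6) in MIGIRKO. The tissue label held, since the summed CPM of 14 skeletal muscle markers was 122800 to 223300 in QKO (median 188800), against 69220 to 115500 in MIGIRKO (median 103900). All 6 MIGIRKO sums lay below all 7 QKO sums, and Qlox and IRIGFRlox lay near QKO (179900 to 189100 in Qlox and 195000 to 210500 in IRIGFRlox). In bulk tissue, fewer cells of a type and less RNA per cell cannot be told apart. Xist had at most 3 counts in any library.

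A few libraries stood apart. On the first principal component of the 13 libraries (39.5% of the variance), QKO 1 to 5 and QKO 7 lay between 19.8 and 59.8 and the MIGIRKO libraries between -51.9 and -29.6, whereas the library labelled QKO 6 lay at -22.8, nearer to MIGIRKO. It correlated most closely with MIGIRKO 6 (r = 0.961, across genes, which are not independent replicates), yet its Foxo4 level was as low as in the other QKO libraries. The library labelled MIGIRKO 6 lay at 39.9 on the second component (17.7%), where MIGIRKO 1 to 5 lay between -31.7 and 1.5. It was closest to MIRKO 3, a muscle lacking the insulin receptor alone (r = 0.973), and MIGIRKO 1 and MIGIRKO 3 were also closest to a MIRKO library. QKO 5 had the lowest total and was closest to Qlox 2 (r = 0.959). All 3 stayed in the groups of their labels, and results are also given without them, an alternative chosen after the data were seen.

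The targeted genes were compared first. Foxo4 (ENSMUSG00000042903, chromosome X, 101254528 to 101260873, GRCm38) was 5.08 to 10.2 CPM in QKO (median 5.64), against 77.1 to 142 CPM in MIGIRKO (median 97.5). Every QKO library, QKO 6 included, lay far below every MIGIRKO library, 16.1-fold at the group means of the fit (log2 difference -4.00 ± 0.16, SE, adjusted p = 1.3e-18, edgeR). Below, a value with ± in parentheses is this log2 difference with its SE, the difference divided by the root of edgeR's F. Foxo1 (ENSMUSG00000044167, chromosome 3, 52268336 to 52353221) was 12.6 to 28.3 CPM in QKO (median 16.9), against 22.1 to 74.0 CPM in MIGIRKO (median 46.4). It was called lower in QKO (-1.42 ± 0.28, adjusted p = 0.00033), but the ranges overlapped, and the floxed controls already differed, at 132 to 148 CPM in Qlox and 30.6 to 81.0 CPM in IRIGFRlox, though not by the test (log2 difference 1.16, adjusted p = 0.78). Foxo3 (ENSMUSG00000048756, chromosome 10, 42181841 to 42276755) was 93.1 to 136 CPM in QKO (median 116), against 59.2 to 151 CPM in MIGIRKO (median 113). Its ranges overlapped and it was not called (0.04 ± 0.18, adjusted p = 0.89), so whole-gene counts do not show its deletion. The deleted exons are not stated, and counts over the remaining exons check nothing.

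Foxo6 (ENSMUSG00000052135, chromosome 4, 120267079 to 120287349), the FoxO gene that was not targeted, was 5.67 to 10.2 CPM in QKO (median 7.16), against 1.44 to 2.46 CPM in MIGIRKO (median 1.94). All 7 QKO libraries lay above all 6 MIGIRKO libraries (1.84 ± 0.25, adjusted p = 1.6e-06), and the controls held 2.30 to 5.73 CPM in Qlox and 3.42 to 7.46 CPM in IRIGFRlox. Both receptor genes, targeted in both genotypes, were lower in QKO. Igf1r (ENSMUSG00000005533, chromosome 7, 67952827 to 68233668) was 4.01 to 11.9 CPM in QKO (median 8.72), against 15.1 to 25.8 CPM in MIGIRKO (median 17.3), with no overlap (-1.17 ± 0.18, adjusted p = 7.3e-06). MIGIRKO 1 to 5 held 15.1 to 20.5 CPM of Igf1r, around the range of their floxed controls (16.5 to 20.3 CPM), and MIGIRKO 6 held 25.8 CPM, above every control. Insr (ENSMUSG00000005534, chromosome 8, 3122061 to 3279617) was 27.8 to 46.1 CPM in QKO (median 39.5), against 40.7 to 69.8 CPM in MIGIRKO (median 52.2). The Insr ranges overlapped (-0.51 ± 0.12, adjusted p = 0.0022), and both lay far below the controls (142 to 163 CPM in Qlox and 159 to 191 CPM in IRIGFRlox).

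**Figure D1:**
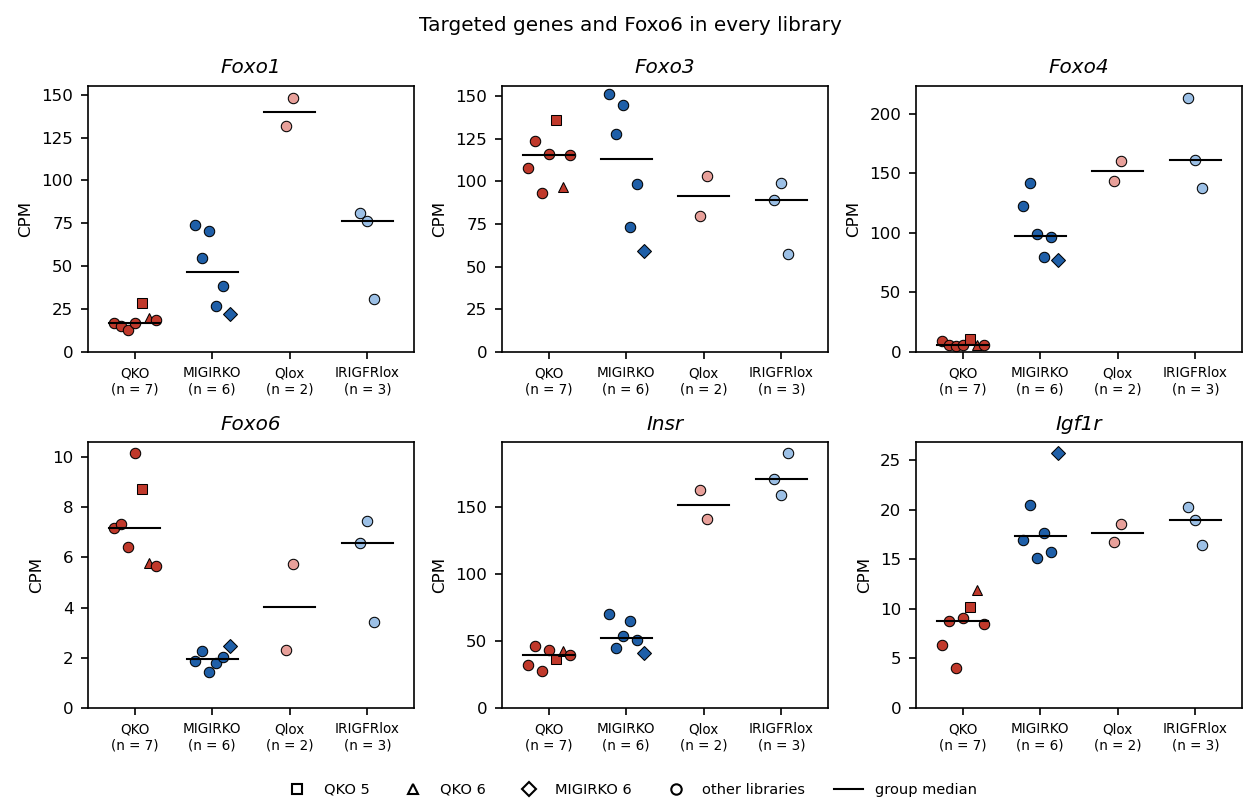
CPM (linear axis) of the 5 targeted genes and Foxo6 in every library of QKO, MIGIRKO, Qlox and IRIGFRlox. Each point is 1 library, the line is the group median, and square, triangle and diamond mark QKO 5, QKO 6 and MIGIRKO 6. Foxo4 was 5.08 to 10.2 CPM in QKO and 77.1 to 142 CPM in MIGIRKO, Foxo6 was higher in every QKO library than in every MIGIRKO library, and the Foxo3 ranges overlapped.

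Of 13646 genes tested, 4116 were called at an adjusted p under 0.05 (30.2%), 2204 higher in QKO (16.2%) and 1912 lower (14%), and 5452 had an unadjusted p under 0.05. At least 2-fold differences were called for 498 genes higher in QKO and 678 lower. In 1000 of the 4116 called genes the QKO and MIGIRKO ranges did not overlap. This was counted among called genes only, so no share over all tested genes stands beside it. Without QKO 5, QKO 6 and MIGIRKO 6, 4950 genes were called, 2413 higher and 2537 lower. Leaving out the library labelled QKO 6 alone gave 5357, 2486 higher and 2871 lower.

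The split into higher and lower depends on the scaling. With library totals and no TMM factor, the median of all genes moved by -0.387 on the log2 scale and the counts became 754 higher and 5895 lower. Of the genes called with TMM, 2666 were called again in the same direction, and 336 changed sign. Directions of gene lists are therefore read against the median of all genes, -0.03 with TMM and -0.41 with library totals. All genes share this shift, so a list median can change sign between the scalings and keep its distance from that of all genes. Called counts of lists are read against the shares of all genes called with TMM, 16.2% higher and 14% lower. Each of the 6 runs of library numbers holds QKO and MIGIRKO libraries. Of the 116 called genes named here, 107 differed in 1 direction in all 6. Most of these genes were picked by their differences in the same libraries, so this agreement is no separate support. A fit with the run as a block called 4629 genes.

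The floxed controls of the colonies were compared next. Qlox against IRIGFRlox, which shares no library with the direct comparison, called 4 genes of 13646 (0.0293%), and 742 had an unadjusted p under 0.05. All 4 are named because they are few, and 3 of them were chosen after their values were seen. DESeq2 called 19 there, limma-voom 2, and edgeR with only the compared groups 60. Of the 4, the gene of unknown function E030030I06Rik (log2 difference 6.63 for Qlox minus IRIGFRlox, 3.94 for QKO minus MIGIRKO) and the opsin gene Opn1mw (4.74 and 6.67) were higher in both. Vcp-rs, a copy related to the ATPase gene Vcp whose reads may be shared with it, was lower in both (-4.53 and -3.63). Pyroxd2, a mitochondrial oxidoreductase, was called in the controls alone (2.13, adjusted p = 0.0334, and in QKO minus MIGIRKO -0.05, adjusted p = 0.916). When the difference between the controls was taken off, 786 genes were called (5.76%), 493 higher and 293 lower. That count rests on 5 control libraries, and without Qlox 2 it was 113. Qlox lay in runs 4 and 5 and IRIGFRlox in runs 1, 2 and 6. A difference between these controls can therefore be one of colony or of run.

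**Figure D2:**
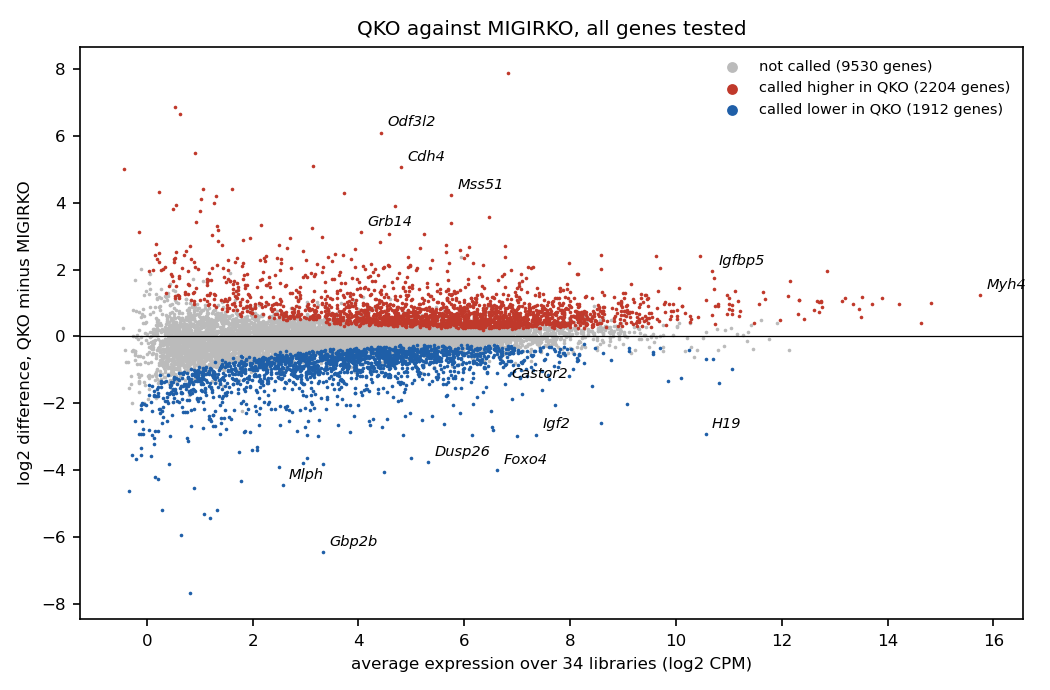
Log2 difference of QKO minus MIGIRKO against average expression (log2 CPM over all 34 libraries) for the 13646 genes tested, 1 point per gene, with the 2204 genes called higher and the 1912 called lower in colour. Among the labelled genes the log2 differences run from Gbp2b (-6.46) to Odf3l2 (6.11), and Myh4, the most abundant of them, lies above 0 (1.24).

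FoxO factors bind the core GTAAACA, and promoters were searched for it. RefSeq promoters (GRCm38.p6, 250 bases before to 50 after the start) were matched by symbol for 10296 of the tested genes. The core, on either strand, was in 77 of 1414 promoter sets of genes called lower in QKO (5.45%), in 42 of 1689 of genes called higher (2.49%) and in 321 of all 10296 (3.12%). Over all 32851 promoters of the table, 1199 held it (3.65%). Of the genes named here, 96 had a promoter and 4 held the core. They are Btg1, an antiproliferative gene, Ccnd3, which encodes cyclin D3, Etv5, an ETS factor of the neuromuscular synapse, and Trim63, the atrophy ubiquitin ligase MuRF1. Each is given 5′ to 3′ on the strand of its gene, with the core or its reverse complement TGTTTAC in capitals and its position counted from the start. They are shown because the first 3 were called lower in QKO and Trim63 was not called.
Btg1 (chr10:96616751-96617050, plus strand, motif at -204): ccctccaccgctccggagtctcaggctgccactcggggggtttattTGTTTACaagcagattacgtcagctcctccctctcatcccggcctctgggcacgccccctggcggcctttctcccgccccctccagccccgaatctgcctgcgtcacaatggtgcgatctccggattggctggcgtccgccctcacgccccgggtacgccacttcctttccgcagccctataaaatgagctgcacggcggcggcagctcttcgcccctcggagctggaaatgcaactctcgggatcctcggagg
Ccnd3 (chr17:47504801-47505100, plus strand, motif at -243): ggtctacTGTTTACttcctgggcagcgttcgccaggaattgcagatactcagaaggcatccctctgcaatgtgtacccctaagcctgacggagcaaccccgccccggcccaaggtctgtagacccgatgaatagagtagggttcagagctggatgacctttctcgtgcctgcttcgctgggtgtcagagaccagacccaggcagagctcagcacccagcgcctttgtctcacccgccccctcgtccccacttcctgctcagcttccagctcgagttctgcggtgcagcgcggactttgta
Etv5 (chr16:22439521-22439820, minus strand, motif at -183): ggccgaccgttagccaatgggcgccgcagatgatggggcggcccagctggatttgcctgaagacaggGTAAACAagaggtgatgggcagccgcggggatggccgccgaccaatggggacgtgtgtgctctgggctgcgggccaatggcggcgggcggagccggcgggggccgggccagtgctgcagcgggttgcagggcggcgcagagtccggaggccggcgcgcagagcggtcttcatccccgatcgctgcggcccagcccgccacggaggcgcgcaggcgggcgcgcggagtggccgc
Trim63 (chr4:134314870-134315169, plus strand, motif at -194): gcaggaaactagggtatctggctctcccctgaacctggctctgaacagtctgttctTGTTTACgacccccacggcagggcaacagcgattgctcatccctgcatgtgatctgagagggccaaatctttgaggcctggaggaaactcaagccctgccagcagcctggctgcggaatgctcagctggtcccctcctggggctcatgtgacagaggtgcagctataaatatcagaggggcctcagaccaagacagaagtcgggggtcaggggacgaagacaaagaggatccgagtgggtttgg
Ccnd3 and Etv5 have 2 promoters in the table, of which the one with the core is shown. A match is a stretch of letters and not a measured binding site, and no match says only that these letters are not in the window. Btg1 was 10.2 to 24.5 CPM in QKO (median 12.9), against 24.2 to 32.1 CPM in MIGIRKO (median 28.2). Its ranges overlapped by 1 QKO value (-0.95 ± 0.16, adjusted p = 4.3e-05). Ccnd3 was 15.0 to 25.8 CPM in QKO (median 19.1), against 26.7 to 43.5 CPM in MIGIRKO (median 36.0), with no overlap (-0.86 ± 0.14, adjusted p = 2e-05). Etv5 was 16.9 to 21.6 CPM in QKO (median 19.6), against 23.1 to 57.1 CPM in MIGIRKO (median 48.7), also with no overlap, and MIGIRKO 6 was the lowest MIGIRKO library (-1.24 ± 0.16, adjusted p = 9.8e-07). Trim63 was 168 to 536 CPM in QKO (median 309), against 147 to 626 CPM in MIGIRKO (median 259.5). Its ranges overlapped and it was not called (0.10 ± 0.28, adjusted p = 0.82).

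Among genes with an average log2 CPM of at least 1, leaving out predicted genes and clones, the 12 largest differences towards QKO ran from a log2 difference of 3.20 (BC048679) to 6.11 (Odf3l2). Odf3l2, an outer dense fiber family gene (ENSMUSG00000035963, chromosome 10, 79639526 to 79645738), was 22.1 to 71.2 CPM in QKO (median 43.5), against 0 to 1.54 CPM in MIGIRKO (median 0.480). Its controls held 45.3 to 123 CPM in Qlox and 19.5 to 49.9 CPM in IRIGFRlox, so the MIGIRKO libraries were the low ones. Mss51 (ENSMUSG00000021815, chromosome 14, 20482867 to 20496901), a mitochondrial protein of muscle that falls when myostatin is inhibited, was 17.7 to 194 CPM in QKO (median 95.9), against 2.71 to 6.78 CPM in MIGIRKO (median 4.56), and 174 to 231 CPM in Qlox and 98.0 to 153 CPM in IRIGFRlox. No QKO library was as low as the highest MIGIRKO library (4.23 ± 0.40, adjusted p = 1.2e-08). The cadherin gene Cdh4 was 18.1 to 102 CPM in QKO (median 55.2), against 0.321 to 5.89 CPM in MIGIRKO (median 0.874), with MIGIRKO 6 as the highest MIGIRKO library (5.07 ± 0.51, adjusted p = 3.2e-08). Kcng4, a modulatory potassium channel subunit, was 53.6 to 89.4 CPM in QKO (median 73.8), against 3.10 to 17.1 CPM in MIGIRKO (median 4.52), and here too MIGIRKO 6 was the highest of its group (3.41 ± 0.36, adjusted p = 7.7e-08).

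Lrtm2, a leucine-rich repeat membrane protein, was 6.77 to 15.3 CPM in QKO (median 9.42), against 0.604 to 1.54 CPM in MIGIRKO (median 0.859), without overlap (3.33 ± 0.32, adjusted p = 4.7e-09). Myh6, the alpha myosin heavy chain of the heart, was 3.63 to 92.2 CPM in QKO (median 34.5), against 1.64 to 2.73 CPM in MIGIRKO (median 2.39). It was called (4.29 ± 0.41, adjusted p = 9.8e-09), but its controls differed in the same direction, at 22.5 to 31.2 CPM in Qlox and 2.78 to 5.93 CPM in IRIGFRlox (log2 difference 2.72, adjusted p = 0.11). Slc15a5, a peptide transporter family member, was 1.16 to 14.7 CPM in QKO (median 6.20), against 0 to 0.959 CPM in MIGIRKO (median 0). Its MIGIRKO libraries held 8 counts in all, and the fitted difference of 5.10 ± 0.71 became 7.08 without MIGIRKO 6. Col9a1, a cartilage collagen chain, and Dach2, a corepressor that denervation lowers, held 2 counts each over the MIGIRKO libraries. By summed counts, Col9a1 was 24.3-fold higher in QKO (95% exact binomial interval 6.23 to 209) and Dach2 25-fold (6.43 to 215), intervals that cover counting error only. Tmem132b, a membrane protein gene, was 0 to 7.11 CPM in QKO (median 2.44), against 0 to 0.481 CPM in MIGIRKO (median 0.153), and BC048679, of unknown function, 0.349 to 5.12 CPM in QKO (median 1.06), against 0 to 0.822 CPM in MIGIRKO (median 0). The ranges of Dach2 and Tmem132b overlapped, and that of BC048679 through MIGIRKO 6 only. BC048679 had a log2 difference of 2.48 without QKO 1 and 5.01 without MIGIRKO 6.

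Of the 12 largest differences towards MIGIRKO, Foxo4 is given above. Dusp26 (ENSMUSG00000039661, chromosome 8, 31089471 to 31097047), a dual-specificity phosphatase, was 3.63 to 12.0 CPM in QKO (median 8.03), against 34.8 to 152 CPM in MIGIRKO (median 111). MIGIRKO 6 was the lowest MIGIRKO library and still lay above every QKO library (-3.75 ± 0.32, adjusted p = 1e-09). Pgpep1l, a peptidase-like gene, was 0.349 to 1.60 CPM in QKO (median 0.709), against 7.87 to 12.1 CPM in MIGIRKO (median 9.03), without overlap (-3.41 ± 0.33, adjusted p = 6.1e-09). Several of these genes were high in MIGIRKO 1 to 5 and low in the library labelled MIGIRKO 6. Sln, which encodes the calcium pump inhibitor sarcolipin, was 0.535 to 19.9 CPM in QKO, against 29.1 to 165 CPM in MIGIRKO 1 to 5 and 2.46 CPM in MIGIRKO 6. The melanosome transport gene Mlph was 0 to 1.24 CPM in QKO, against 9.64 to 27.9 CPM in MIGIRKO 1 to 5 and 1.23 CPM in MIGIRKO 6. The channel subunit Kcne1l was 0.349 to 3.01 CPM in QKO, against 13.4 to 25.8 CPM in MIGIRKO 1 to 5 and 1.92 CPM in MIGIRKO 6. For these 3 genes QKO and MIGIRKO overlapped through MIGIRKO 6 and did not overlap without it.

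Mirg, a noncoding RNA of the imprinted Dlk1-Dio3 region, was 0.752 to 1.95 CPM in QKO (median 1.45), against 5.34 to 31.9 CPM in MIGIRKO (median 19.8), without overlap (-3.78 ± 0.57, adjusted p = 1.3e-05). The interferon-induced GTPase gene Gbp2b, one of a family of close copies, was 0 to 0.349 CPM in QKO, against 10.3 to 41.2 CPM in MIGIRKO 1 to 5 and 0.274 CPM in MIGIRKO 6. Its call (-6.46 ± 1.12, adjusted p = 8.2e-05) was lost with limma-voom (adjusted p = 0.0826). The Gbp2b controls differed in the same direction, at 0 CPM in Qlox and 0.305 to 11.8 CPM in IRIGFRlox (log2 difference -7.65, edgeR adjusted p = 0.88). With the difference between the controls taken off, the Gbp2b value was 1.20 (edgeR adjusted p = 0.91). Btnl7-ps, a pseudogene of a butyrophilin-like family, held 2 counts over all QKO libraries and 167 over the MIGIRKO libraries. By summed counts it was 58.4-fold lower in QKO (95% exact binomial interval 15.9 to 486), an interval that covers counting error only. Its level was 3.855 to 5.457 CPM in MIGIRKO 1 to 5 and 0.685 CPM in MIGIRKO 6. Mup10, one of the near-identical major urinary protein genes, was 0.177 to 3.47 CPM in QKO (median 1.60), against 5.89 to 47.7 CPM in MIGIRKO (median 29.1), without overlap. Reads of such copies may have been split or shared in counting. Retn, which encodes the fat cell hormone resistin, was 0 to 2.26 CPM in QKO (median 0.532), against 3.15 to 20.5 CPM in MIGIRKO (median 6.45), without overlap. Vcp-rs was 1.42 to 7.15 CPM in QKO (median 3.63), against 2.71 to 71.3 CPM in MIGIRKO (median 46.4), and the library labelled MIGIRKO 5 alone had the low value, in the range of Qlox (2.29 to 4.92 CPM) and not of IRIGFRlox (67.6 to 101 CPM).

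Of 33 tested genes of insulin and IGF signalling, 5 were called higher in QKO and 10 lower, with a median log2 difference of -0.18 (-0.55 with library totals). Grb14 (ENSMUSG00000026888, chromosome 2, 64912476 to 65024987), an adaptor that binds and inhibits the insulin receptor, was 15.8 to 31.9 CPM in QKO (median 22.3), against 1.21 to 4.06 CPM in MIGIRKO (median 2.38). Every QKO library lay above every MIGIRKO library and within or near the controls, at 16.4 to 31.9 CPM in Qlox and 18.6 to 24.8 CPM in IRIGFRlox (3.12 ± 0.27, adjusted p = 6.1e-10). Inppl1, the lipid phosphatase SHIP2 that removes the product of PI3-kinase, was 125 to 171 CPM in QKO (median 139), against 82.5 to 101 CPM in MIGIRKO (median 89.3), without overlap (0.67 ± 0.10, adjusted p = 4.2e-06).

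Among 14 tested IGF ligands, binding proteins and linked imprinted genes, 1 was called higher in QKO and 6 lower (median -0.66, and -1.04 with library totals). The higher one was Igfbp5 (ENSMUSG00000026185, chromosome 1, 72857932 to 72874884), a binding protein abundant in muscle. It was 2131 to 3043 CPM in QKO (median 2355), against 533 to 764 CPM in MIGIRKO (median 614), 3.88-fold higher without overlap (1.96 ± 0.15, adjusted p = 2.2e-11), and the controls held 1767 to 2422 CPM in Qlox and 1895 to 2671 CPM in IRIGFRlox. Igfbp4, another binding protein, was 80.7 to 114 CPM in QKO (median 102), against 127 to 209 CPM in MIGIRKO (median 165), lower in every QKO library (-0.72 ± 0.12, adjusted p = 2.6e-05). Igf2, the fetal growth factor, was 32.6 to 163 CPM in QKO (median 45.4), against 563 to 695 CPM in MIGIRKO 1 to 5 and 69.8 CPM in MIGIRKO 6. H19, the noncoding RNA imprinted with it, was 266 to 1109 CPM in QKO (median 570.3), against 4014 to 7219 CPM in MIGIRKO 1 to 5 and 989 CPM in MIGIRKO 6. Both were called lower in QKO (Igf2 -2.94 ± 0.52, adjusted p = 9.4e-05, H19 -2.93 ± 0.45, adjusted p = 1.4e-05), and in both QKO and MIGIRKO overlapped through MIGIRKO 6 only. Igf2 was higher in QKO 4 and QKO 7 than in MIGIRKO 6.

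mTORC1 is the kinase complex through which growth factors and amino acids drive translation. Of 31 tested regulators, 8 were called higher in QKO and 6 lower, with a median of 0.15, and -0.25 with library totals, against -0.03 and -0.41 for all genes. Castor2 (ENSMUSG00000015944, chromosome 5, 134099711 to 134144343), a member of the family of amino acid sensors that restrain mTORC1 through GATOR2, was 35.6 to 46.8 CPM in QKO (median 41.8), against 93.0 to 130 CPM in MIGIRKO (median 111). All 7 QKO libraries lay below all 6 MIGIRKO libraries and below the controls, at 123 to 126 CPM in Qlox and 124 to 129.6 CPM in IRIGFRlox, 2.71-fold against MIGIRKO (-1.44 ± 0.10, adjusted p = 1.9e-12). Eif4ebp1, the translation repressor 4E-BP1, was 7.84 to 13.5 CPM in QKO (median 10.6), against 22.5 to 39.6 CPM in MIGIRKO (median 30.4), also without overlap (-1.57 ± 0.23, adjusted p = 3.4e-06). Rragd, a Rag GTPase that brings mTORC1 to the lysosome, was 439 to 852 CPM in QKO (median 645), against 245 to 295 CPM in MIGIRKO (median 275), higher in every QKO library (1.15 ± 0.13, adjusted p = 1.2e-07).

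**Figure D3:**
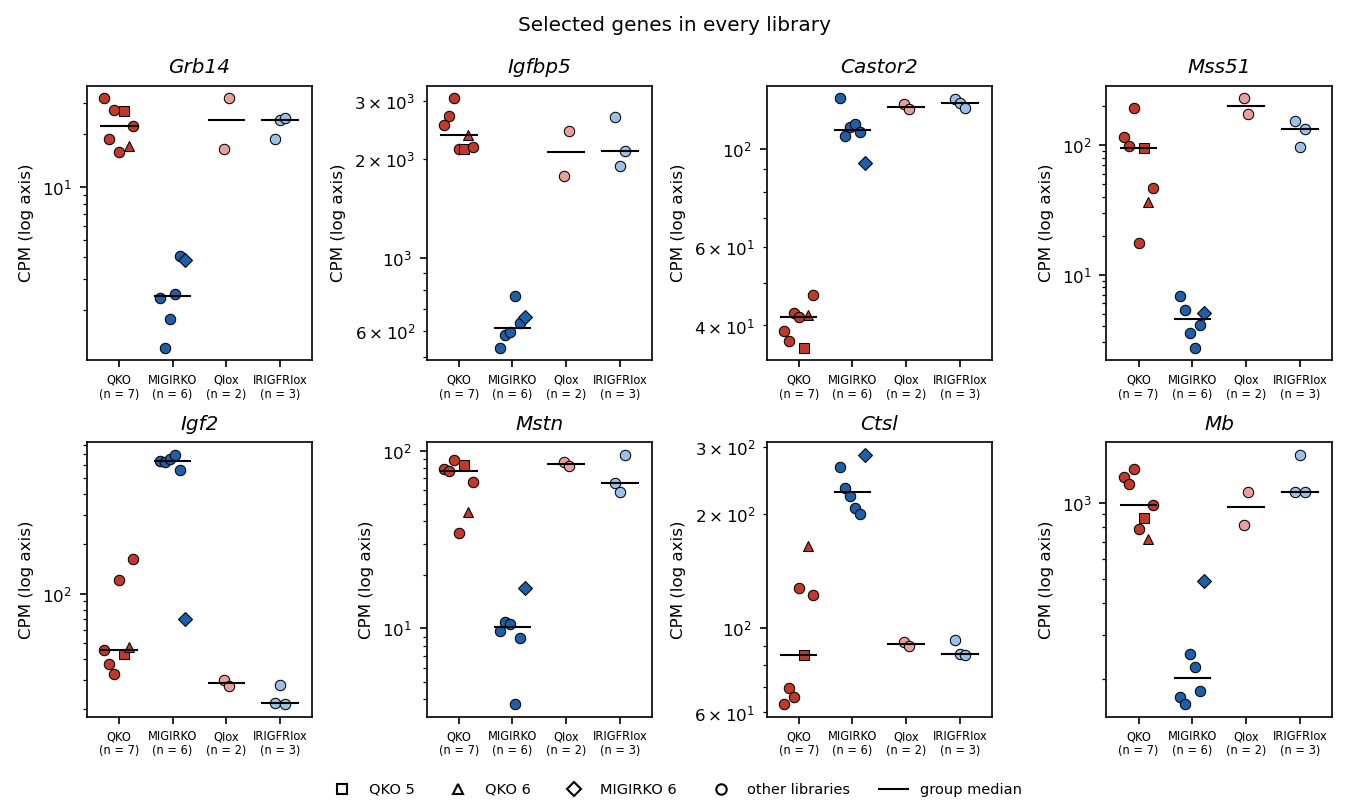
CPM (log axis) of 8 genes in every library of QKO, MIGIRKO, Qlox and IRIGFRlox. Each point is 1 library, lines are group medians, and square, triangle and diamond mark QKO 5, QKO 6 and MIGIRKO 6. Grb14, Igfbp5, Mss51, Mstn and Mb were higher in every QKO library than in every MIGIRKO library, Castor2 and Ctsl lower, and Igf2 was 69.8 CPM in MIGIRKO 6 and 563 to 695 CPM in MIGIRKO 1 to 5.

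Most listed genes of growth arrest and related cyclins were called lower in QKO. Of 23 tested cell cycle inhibitors, Gadd45 genes and related cyclins, 2 were called higher and 14 lower (median -0.69, and -1.08 with library totals). Without QKO 5, QKO 6 and MIGIRKO 6 the counts were 2 and 15. The summed CPM of the list went the other way and was higher in every QKO library. It was 3041 to 3664 in QKO (median 3135), against 2282 to 2840 in MIGIRKO (median 2476). Cdkn1c, the imprinted inhibitor p57, was 22.3 to 50.4 CPM in QKO (median 33.2), against 49.3 to 219 CPM in MIGIRKO (median 136), overlapping through MIGIRKO 6 only (-2.02 ± 0.28, adjusted p = 2.6e-06). Cdkn1a, the inhibitor p21, and Gadd45a, a stress gene that promotes muscle atrophy, are known targets of the pathway and were chosen after their values were seen. Gadd45a was 4.6 to 20.7 CPM in QKO (median 7.99), against 18.1 to 47.5 CPM in MIGIRKO (median 34.2), with overlap (-1.74 ± 0.37, adjusted p = 0.00057). Cdkn1a was 42.9 to 84.7 CPM in QKO (median 58.3), against 105 to 149 CPM in MIGIRKO (median 118), without overlap (-0.98 ± 0.28, adjusted p = 0.0087), and 27.6 to 50.7 CPM in Qlox and 34.0 to 58.6 CPM in IRIGFRlox. Ccng1, which encodes cyclin G1, went the other way, at 1900 to 2331 CPM in QKO (median 1942), against 765 to 1330 CPM in MIGIRKO (median 1151) (0.90 ± 0.14, adjusted p = 1.3e-05).

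Ubiquitin ligases of atrophy were called at about the share of all genes. Of 22 tested, 5 were called higher in QKO and 2 lower, where 16.2% and 14% of all genes were, with a median of 0.16, and -0.23 with library totals. Fbxo32, the atrogene atrogin-1, chosen like Trim63 after its values were seen, was 209 to 438 CPM in QKO (median 242), against 169.6 to 436 CPM in MIGIRKO (median 277). Its ranges overlapped and it was not called (-0.11 ± 0.22, adjusted p = 0.74), although with library totals it was called lower (-0.50, adjusted p = 0.049). MIGIRKO 6 was the highest of its group for both atrogenes, and the controls held 362 to 528 CPM in Qlox and 395 to 945 CPM in IRIGFRlox for Fbxo32 and 574 to 1053 CPM in Qlox and 457 to 723 CPM in IRIGFRlox for Trim63. Fbxo40, a muscle ligase that degrades the insulin receptor substrate IRS1, was 414 to 661 CPM in QKO (median 589), against 173 to 289 CPM in MIGIRKO (median 228), without overlap (1.30 ± 0.16, adjusted p = 3.5e-07). The ligase gene Wwp1 was 251 to 402 CPM in QKO (median 367), against 132 to 249.4 CPM in MIGIRKO (median 176), without overlap (0.93 ± 0.17, adjusted p = 7.8e-05).

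Asb proteins are adaptors that bring substrates to cullin ligases, and several are specific to muscle. Of 15 tested, 8 were called higher in QKO and 0 lower (median 0.42), and with library totals 5 and 5 (median 0.02). Asb2 was 408 to 1027 CPM in QKO (median 563), against 144 to 248 CPM in MIGIRKO (median 228), Asb15 75.4 to 175 CPM in QKO (median 127), against 26.9 to 57.7 CPM in MIGIRKO (median 33.0), and Asb10 75.2 to 166 CPM in QKO (median 131), against 15.8 to 53.3 CPM in MIGIRKO (median 27.5). No range overlapped for these 3 genes, whose log2 differences were 1.58 ± 0.19, 1.75 ± 0.23 and 1.99 ± 0.30 (adjusted p = 2.1e-07, 9.1e-07 and 1.1e-05). The controls of all 3 lay above the QKO medians, for example 165 to 220.2 CPM in Qlox and 176 to 224 CPM in IRIGFRlox for Asb15.

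Autophagy, lysosome and proteasome genes were mixed. Of 37 tested autophagy and mitophagy genes, 12 were called higher in QKO and 4 lower, with a median of 0.06 (-0.33 with library totals, 5 higher and 17 lower). Ulk2, a kinase that starts autophagosome formation, was 161 to 225 CPM in QKO (median 198), against 87.4 to 126 CPM in MIGIRKO (median 110.1), without overlap (0.84 ± 0.13, adjusted p = 6.8e-06). Atg4a, a protease that processes LC3-like proteins, was 16.2 to 29.8 CPM in QKO (median 22.3), against 6.32 to 17.1 CPM in MIGIRKO (median 9.37), with MIGIRKO 6 the highest of its group and inside the QKO range (1.13 ± 0.19, adjusted p = 3.3e-05). Of 30 lysosomal genes, 4 were called higher and 5 lower, about the 16.2% and 14% of all genes (median -0.08, and -0.43 with library totals). Ctsl (ENSMUSG00000021477, chromosome 13, 64359337 to 64370890), the lysosomal protease cathepsin L, was 63.1 to 164 CPM in QKO (median 85.0), against 200 to 286 CPM in MIGIRKO (median 228). Every QKO library lay below every MIGIRKO library, QKO 6 being the highest of its group (-1.24 ± 0.20, adjusted p = 3e-05), and the controls held 89.6 to 92.2 CPM in Qlox and 84.9 to 93.1 CPM in IRIGFRlox. Atp6v0a1, a subunit of the proton pump, was 142 to 173 CPM in QKO (median 159), against 94.1 to 113 CPM in MIGIRKO (median 104), higher without overlap (0.61 ± 0.08, adjusted p = 1.6e-06).

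The summed lysosomal CPM was 7350 in QKO 6, the highest of the 13 libraries, in which the summed macrophage and immune markers were also highest (3908). The part of one in the other was not tested. Without QKO 5, QKO 6 and MIGIRKO 6, 3 lysosomal genes were called higher and 8 lower. Of 40 proteasome genes, 6 were called higher, about the 16.2% of all genes, and 1 lower, with a median of 0.15. With library totals the median was -0.24, and 0 were higher and 13 lower. Psmd6, a subunit of the 19S cap, was 124 to 179 CPM in QKO (median 167), against 92.0 to 118 CPM in MIGIRKO (median 105), without overlap (0.54 ± 0.12, adjusted p = 0.00062), and was not called with library totals (0.14, adjusted p = 0.28).

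Many transcripts of the respiratory chain were called higher in QKO, and few lower. Of 36 tested nuclear subunits of complex I, which takes electrons from NADH, 22 were called higher and 0 lower, with a median of 0.63 (0.23 with library totals, 5 and 0). Without QKO 5, QKO 6 and MIGIRKO 6 the counts were 25 and 0 (median 0.80). The floxed controls had a median of -0.47 for Qlox minus IRIGFRlox, with no member called. Mean log2 CPM of the list was also low in the other libraries of the Qlox runs, 4 and 5. It was 5.60 and 5.58 in MIGIRKO 4 and 5, against 6.08 to 6.22 in the other MIGIRKO libraries. In QKO 5 and QKO 6 it was 6.19 and 5.85, against 6.49 to 6.90 in the other QKO libraries. The part of the run in the control difference was not tested. The summed muscle markers given above were also higher in every QKO library, and their part in the differences of mitochondrial and contractile genes was not tested. Ndufs1, the largest subunit, was 419 to 563 CPM in QKO (median 503), against 264 to 301 CPM in MIGIRKO (median 287), without overlap (0.82 ± 0.10, adjusted p = 2.2e-07). Ndufa8 was 49.6 to 102 CPM in QKO (median 80.8), against 35.6 to 53.1 CPM in MIGIRKO (median 42.1), with some overlap (0.85 ± 0.14, adjusted p = 2e-05). Ndufv2, which carries an iron-sulfur cluster, was 158 to 311 CPM in QKO (median 289.9), against 114 to 209 CPM in MIGIRKO (median 154). Its lowest QKO value was that of QKO 6, inside the MIGIRKO range (0.80 ± 0.15, adjusted p = 0.00015).

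Complex I assembly factors had 8 of 17 called higher and 0 lower, and their median was 0.39, and -0.02 with library totals, against -0.03 and -0.41 for all genes. Ecsit, one of them, was 32.4 to 67.7 CPM in QKO (median 58.0), against 25.9 to 38.4 CPM in MIGIRKO (median 31.2), and QKO 6 was again the low QKO library (0.77 ± 0.13, adjusted p = 4.2e-05). For nuclear genes of complexes II to V the counts were 18 and 2 of 40 (median 0.50, and 0.10 with library totals). Their floxed controls had a median of -0.46 for Qlox minus IRIGFRlox, with no member called. Sdha, the flavoprotein of succinate dehydrogenase, was 910.4 to 1270 CPM in QKO (median 1118), against 593 to 801 CPM in MIGIRKO (median 624), without overlap (0.77 ± 0.09, adjusted p = 2.2e-07). Of the 13 mRNAs of the mitochondrial genome, 7 were called higher and 0 lower (median 0.58, and 0.19 with library totals). The complex I subunit mt-Nd5 was 6526 to 9856 CPM in QKO (median 7725), against 3203 to 5021 CPM in MIGIRKO (median 3767), without overlap (1.03 ± 0.14, adjusted p = 2e-06).

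Mitochondrial ribosomal proteins had 22 of 75 called higher and 0 lower, and their median was 0.34, and -0.06 with library totals, where 0 were called higher and 7 lower. Mrpl55 was 29.4 to 48.4 CPM in QKO (median 33.7), against 16.2 to 28.6 CPM in MIGIRKO (median 22.1), without overlap (0.72 ± 0.15, adjusted p = 0.00038), and was not called with library totals (0.31, adjusted p = 0.08). Cytosolic ribosomal proteins lay near the median of all genes, with 1 called higher and 2 lower of 75 (median -0.07). In the floxed controls their median was -0.44 for Qlox minus IRIGFRlox, with no member called. The median difference of the changes was 0.45. Rpl34, called higher (1.63 ± 0.39, adjusted p = 0.0018), and Rps3a1, called lower (-1.38 ± 0.34, adjusted p = 0.0029), have near-identical copies in the genome, so their counts are uncertain. The Rps3a1 call was lost without QKO 5, QKO 6 and MIGIRKO 6 (-0.92, adjusted p = 0.052).

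Pyruvate dehydrogenase and the TCA cycle, which feed the chain, had 20 of 26 genes called higher and 0 lower (median 0.56, and 0.15 with library totals, 9 and 1). Idh3a, a subunit of the NAD-dependent isocitrate dehydrogenase, was 725 to 1244 CPM in QKO (median 1073), against 449 to 561 CPM in MIGIRKO (median 509). QKO 6 was the lowest QKO library and still lay above MIGIRKO (1.04 ± 0.13, adjusted p = 3.5e-07). Mdh2, the mitochondrial malate dehydrogenase, was 421 to 750 CPM in QKO (median 628), against 247 to 346 CPM in MIGIRKO (median 293), without overlap (1.00 ± 0.14, adjusted p = 2.1e-06). Branched-chain amino acid breakdown had 11 of 19 called higher and 0 lower, and its median was 0.31, and -0.09 with library totals. Bckdk, the kinase that shuts off the rate-limiting dehydrogenase, was 90.6 to 167 CPM in QKO (median 131), against 52.1 to 91.3 CPM in MIGIRKO (median 75.5), with slight overlap (0.89 ± 0.15, adjusted p = 3.7e-05).

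Fatty acid genes were split, with 11 of 30 called higher and 4 lower (median 0.24, and -0.16 with library totals). Cpt2, a carnitine palmitoyltransferase of the inner mitochondrial membrane, was 45.0 to 62.9 CPM in QKO (median 56.8), against 32.9 to 44.1 CPM in MIGIRKO (median 35.4), without overlap (0.58 ± 0.10, adjusted p = 4.8e-05), and was not called with library totals (0.18, adjusted p = 0.11). Pnpla2, the lipase that starts triglyceride breakdown and is also a gene of fat cells, was 85.1 to 153 CPM in QKO (median 116), against 151 to 403 CPM in MIGIRKO (median 276). It was called lower (-1.27 ± 0.16, adjusted p = 5.2e-07), and MIGIRKO 6, the lowest of its group, lay in the QKO range. Adipocyte markers moved with it, and their part in it was not tested.

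Regulators of oxidative metabolism had 10 of 25 called higher and 1 lower, with a median of 0.24, and -0.14 with library totals. Myoglobin (Mb, ENSMUSG00000018893, chromosome 15, 77015487 to 77050670), which stores oxygen in fibers, was 717 to 1367 CPM in QKO (median 978), against 159 to 490 CPM in MIGIRKO (median 201), 4.18-fold higher without overlap (2.06 ± 0.23, adjusted p = 6.1e-08). Rxrg, a retinoid X receptor of muscle, was 47.5 to 95.3 CPM in QKO (median 54.9), against 6.20 to 24.4 CPM in MIGIRKO (median 8.15), and Esrrb, an estrogen-related receptor, 6.77 to 10.7 CPM in QKO (median 8.02), against 0.963 to 3.83 CPM in MIGIRKO (median 1.21). In all 3 genes MIGIRKO 6 was the highest MIGIRKO library and still lay below QKO (Rxrg 2.54 ± 0.30, adjusted p = 3.5e-07, Esrrb 2.31 ± 0.30, adjusted p = 6.7e-07). Mitochondrial fusion, fission and cristae genes had 10 of 21 called higher and 0 lower (median 0.47, and 0.08 with library totals), among them the fusion GTPase Opa1, at 178 to 270.3 CPM in QKO (median 234), against 108 to 157 CPM in MIGIRKO (median 126) (0.84 ± 0.11, adjusted p = 1.6e-06). Of 26 antioxidant genes, 4 were called higher and 7 lower (median -0.17). The mitochondrial superoxide dismutase Sod2 was 229 to 360.2 CPM in QKO (median 332), against 159.6 to 244 CPM in MIGIRKO (median 175), and only MIGIRKO 6 reached the QKO range (0.74 ± 0.12, adjusted p = 1e-05). The secreted peroxidase Gpx3 was 71.2 to 151 CPM in QKO (median 98.8), against 133 to 322 CPM in MIGIRKO (median 199.8), lower in QKO (-1.02 ± 0.18, adjusted p = 4e-05).

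Glucose uptake, glycolysis and glycogen genes were mostly higher in QKO, with 26 of 35 called higher and 4 lower (median 0.87). With library totals 19 were higher and 6 lower (median 0.47). Their summed CPM was 40140 to 73900 in QKO (median 64390), against 25350 to 37690 in MIGIRKO (median 31355), and 63910 to 64860 in Qlox and 58440 to 66330 in IRIGFRlox. Tbc1d1, a regulator of glucose transporter traffic that Akt and AMPK phosphorylate, was 70.8 to 138 CPM in QKO (median 123), against 16.3 to 31.4 CPM in MIGIRKO (median 19.6), 5.15-fold higher without overlap (2.37 ± 0.23, adjusted p = 7.4e-09). Fbp2, the muscle fructose bisphosphatase, was 46.4 to 119 CPM in QKO (median 79.6), against 11.4 to 20.4 CPM in MIGIRKO (median 16.1), without overlap (2.29 ± 0.24, adjusted p = 3.4e-08). Pgm1, phosphoglucomutase, was 1559 to 2593 CPM in QKO (median 2125), against 600.1 to 936 CPM in MIGIRKO (median 756), and Phka1, a subunit of the kinase that activates glycogen phosphorylase, 1317 to 2321 CPM in QKO (median 2124), against 403 to 757 CPM in MIGIRKO (median 581). Neither range overlapped (Pgm1 1.43 ± 0.17, adjusted p = 1.9e-07, Phka1 1.74 ± 0.22, adjusted p = 4e-07).

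**Figure D4:**
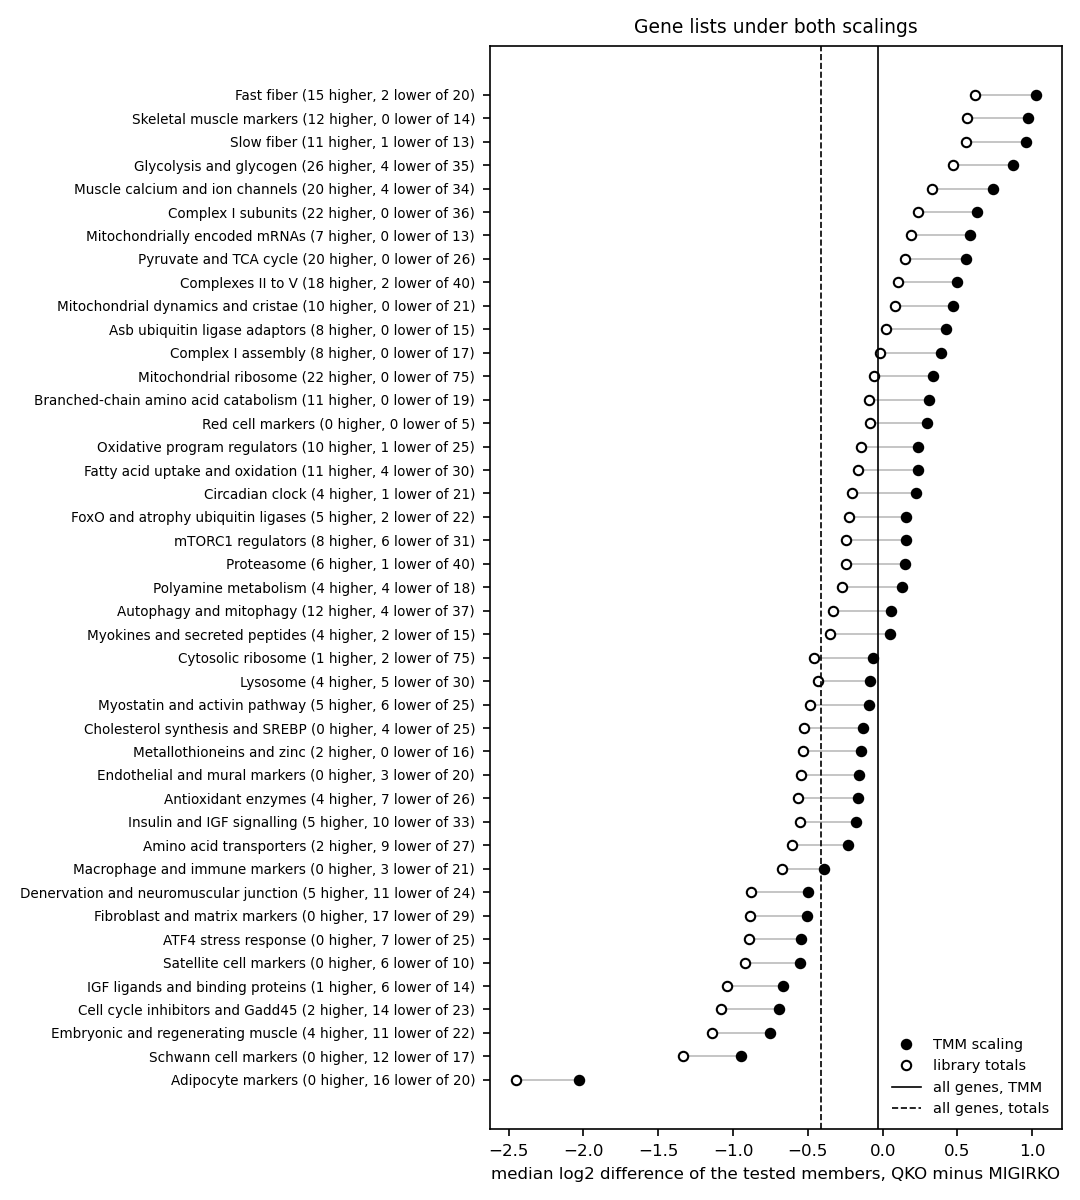
Median log2 difference (QKO minus MIGIRKO) of the tested members of each of the 43 gene lists, with TMM scaling (filled) and with library totals (open). Vertical lines mark the median of all tested genes under each scaling, -0.03 and -0.41, and labels give the called members. Fast fiber (1.02), muscle marker (0.97) and slow fiber (0.96) lists lie at the top and adipocyte markers (-2.03) at the bottom.

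Most listed genes of both fiber types were called higher in QKO. Of 20 fast fiber genes, 15 were called higher and 2 lower (median 1.02, and 0.61 with library totals). Myh4, which encodes the myosin heavy chain of the fastest fibers, was 44510 to 84950 CPM in QKO (median 68360), against 15780 to 33670 CPM in MIGIRKO (median 29350), without overlap (1.24 ± 0.17, adjusted p = 2.6e-06). Cacna1s, the voltage sensor of excitation-contraction coupling, was 1955 to 3283 CPM in QKO (median 2795), against 929 to 1323 CPM in MIGIRKO (median 1178), and Casq1, the calcium store protein of fast fibers, 4883 to 7700 CPM in QKO (median 5776), against 1424 to 2265 CPM in MIGIRKO (median 1934), both without overlap (Cacna1s 1.25 ± 0.14, adjusted p = 4.8e-08, Casq1 1.66 ± 0.24, adjusted p = 4.7e-06). Of 13 slow fiber genes, 11 were called higher and 1 lower (median 0.96, and 0.56 with library totals). The slow fiber median in the floxed controls was -0.62 for Qlox minus IRIGFRlox, with no member called. The slow calcium pump Atp2a2 was 630.1 to 1122 CPM in QKO (median 792), against 346 to 532 CPM in MIGIRKO (median 403), without overlap (0.96 ± 0.17, adjusted p = 4.6e-05). Mybpc1, the slow myosin-binding protein C, was 1944 to 3174 CPM in QKO (median 2744), against 1273 to 1893 CPM in MIGIRKO (median 1736) (0.68 ± 0.12, adjusted p = 7.3e-05), and with library totals it was not called (0.27, adjusted p = 0.056).

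Of 34 muscle calcium and ion channel genes, 20 were called higher and 4 lower (median 0.74, and 0.33 with library totals). Aqp4, the water channel of the fiber membrane, was 106 to 141 CPM in QKO (median 111), against 22.0 to 42.7 CPM in MIGIRKO (median 32.8). Every QKO library lay above every MIGIRKO library and also above the controls (36.0 to 51.8 CPM in Qlox and 43.0 to 79.1 CPM in IRIGFRlox) (1.79 ± 0.17, adjusted p = 3.2e-09). Kcnq5, a potassium channel, was 16.9 to 33.4 CPM in QKO (median 24.7), against 4.65 to 10.4 CPM in MIGIRKO (median 5.19), without overlap (2.02 ± 0.21, adjusted p = 2.3e-08).

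Among genes that change in denervated or immature fibers, more were called lower in QKO than higher. Of 24 denervation and neuromuscular junction genes, 5 were called higher and 11 lower (median -0.50, and -0.88 with library totals). Without QKO 5, QKO 6 and MIGIRKO 6 the counts were 4 and 15. Myog, the myogenic factor myogenin, was 3.49 to 12.2 CPM in QKO (median 4.36), against 16.2 to 31.8 CPM in MIGIRKO (median 22.6), without overlap, and 0.984 to 1.60 CPM in Qlox and 1.5 to 3.21 CPM in IRIGFRlox (-1.86 ± 0.31, adjusted p = 3.8e-05). Ankrd1, a titin-binding stress protein, was 12.3 to 38.4 CPM in QKO (median 21.9), against 99.4 to 216 CPM in MIGIRKO (median 142), without overlap (-2.61 ± 0.47, adjusted p = 0.00012), and both groups lay above the controls (2.06 to 5.25 CPM in Qlox and 3.97 to 11.1 CPM in IRIGFRlox). Chrnb1, a subunit of the acetylcholine receptor, was 30.5 to 59.1 CPM in QKO (median 32.4), against 47.4 to 110.4 CPM in MIGIRKO (median 84.2), overlapping through MIGIRKO 6 (-1.14 ± 0.20, adjusted p = 4.2e-05). Of 22 embryonic and regeneration genes, 4 were called higher and 11 lower (median -0.75, and -1.14 with library totals). Myh8, the perinatal myosin, was 13.8 to 67.0 CPM in QKO (median 19.5), against 188 to 464 CPM in MIGIRKO 1 to 5 and 17.4 CPM in MIGIRKO 6 (-2.96 ± 0.61, adjusted p = 0.00055). Within the runs it differed from -4.87 to 1.91, the highest being the run that holds MIGIRKO 6. Mef2c, a transcription factor of fiber differentiation on the same list, was 729.5 to 1021 CPM in QKO (median 838), against 300.3 to 534 CPM in MIGIRKO (median 378), higher without overlap (1.16 ± 0.13, adjusted p = 8.7e-08).

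Myostatin, a secreted factor that limits muscle growth, signals through activin receptors. Of 25 genes of this pathway, 5 were called higher and 6 lower (median -0.09). The ligand gene Mstn (ENSMUSG00000026100, chromosome 1, 53061640 to 53068079) was 34.2 to 88.5 CPM in QKO (median 76.8), against 3.74 to 17.0 CPM in MIGIRKO (median 10.2). Every QKO library lay above every MIGIRKO library, 6.65-fold at the group means, and the QKO range overlapped that of the controls, at 82.3 to 86.3 CPM in Qlox and 58.5 to 95 CPM in IRIGFRlox (2.73 ± 0.32, adjusted p = 3.6e-07). The type 1 receptor gene Acvr1b was 55.7 to 147 CPM in QKO (median 89.9), against 26.3 to 46.7 CPM in MIGIRKO (median 40.7), also without overlap (1.28 ± 0.20, adjusted p = 9.4e-06). Id3, a target of the related BMP signal, was 18.2 to 24.3 CPM in QKO (median 23.2), against 33.6 to 63.1 CPM in MIGIRKO (median 41.9) (-1.06 ± 0.16, adjusted p = 9e-06). It was lower in every QKO library, and lower in Qlox (14.2 to 17.4 CPM) than in IRIGFRlox (29.5 to 31.4 CPM) too, which did not pass the test (adjusted p = 0.49).

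Among 15 muscle-secreted factors, 4 were called higher and 2 lower (median 0.05, and -0.35 with library totals). Fndc5, the precursor of irisin, was 123 to 198 CPM in QKO (median 139), against 33.3 to 63.7 CPM in MIGIRKO (median 38.9), and Ostn, which encodes musclin, 3.76 to 14.7 CPM in QKO (median 9.45), against 0.604 to 3.42 CPM in MIGIRKO (median 1.47), both higher without overlap (Fndc5 1.81 ± 0.16, adjusted p = 1.1e-09, Ostn 2.39 ± 0.35, adjusted p = 6.5e-06). The neurotrophin gene Bdnf was low throughout, at 0.267 to 1.5 CPM in QKO (median 0.886), against 1.54 to 7.36 CPM in MIGIRKO (median 5.55) (-2.37 ± 0.42, adjusted p = 6.8e-05). Of 18 polyamine genes, 4 were called higher and 4 lower. Amd1, which makes the aminopropyl donor of polyamine synthesis, was 80.5 to 472 CPM in QKO (median 288), against 27.6 to 96.8 CPM in MIGIRKO (median 42.0) (2.44 ± 0.41, adjusted p = 4.8e-05). Its near-identical copy Amd2 showed the same order (2.32 ± 0.40), and reads of the copies cannot be told apart with certainty. Odc1, ornithine decarboxylase, was 51.9 to 89.8 CPM in QKO (median 59.4), against 81.0 to 159 CPM in MIGIRKO (median 104), lower in QKO with overlap (-0.75 ± 0.19, adjusted p = 0.0027).

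Amino acid transporters had 2 of 27 called higher and 9 lower (median -0.23, and -0.61 with library totals). Slc43a1, a carrier of branched-chain amino acids, was 5.58 to 15.4 CPM in QKO (median 8.02), against 15.3 to 38.8 CPM in MIGIRKO (median 27.8), Slc36a2, a proton-coupled carrier, 0.886 to 4.51 CPM in QKO (median 2.39), against 5.34 to 27.9 CPM in MIGIRKO (median 16.9), and the glutamate carrier Slc1a3 2.56 to 10.5 CPM in QKO (median 3.97), against 7.94 to 24.4 CPM in MIGIRKO (median 18.9). MIGIRKO 6 was the lowest MIGIRKO library in all 3, and their log2 differences were -1.70 ± 0.20, -2.83 ± 0.36 and -2.04 ± 0.30 (adjusted p = 2.2e-07, 7e-07 and 6.8e-06). Targets of ATF4, the factor of amino acid stress, had 0 called higher and 7 lower of 25 (median -0.55), among them asparagine synthetase (Asns), at 1.87 to 7.52 CPM in QKO (median 3.14), against 5.46 to 11.9 CPM in MIGIRKO (median 8.28) (-0.97 ± 0.28, adjusted p = 0.0095). Of 16 metallothionein and zinc genes, 2 were called higher, near the 16.2% of all genes, and 0 lower. The zinc exporter Slc30a2 was 8.28 to 46.5 CPM in QKO (median 23.9), against 2.16 to 4.49 CPM in MIGIRKO (median 3.27), without overlap (2.83 ± 0.28, adjusted p = 7.4e-09).

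Clock genes had 4 of 21 called higher, near the 16.2% of all genes, and 1 lower (median 0.22, and -0.21 with library totals). The clock output factor Hlf was 9.42 to 24.7 CPM in QKO (median 13.6), against 5.62 to 7.44 CPM in MIGIRKO (median 6.25), without overlap (1.21 ± 0.25, adjusted p = 0.00045). Of 25 cholesterol genes, 0 were called higher and 4 lower, the latter near the 14% of all genes (median -0.13). Insig1, which holds SREBP factors in the endoplasmic reticulum, was 6.63 to 15.7 CPM in QKO (median 12.0), against 17.5 to 43.2 CPM in MIGIRKO (median 21.2), without overlap (-1.01 ± 0.17, adjusted p = 3.6e-05), and Srebf2, one of these factors, 19.6 to 45.1 CPM in QKO (median 23.9), against 37.2 to 57.2 CPM in MIGIRKO (median 47.5), with overlap (-0.80 ± 0.17, adjusted p = 0.00042).

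Adipocyte, fibroblast, Schwann and satellite cell markers were often called lower in QKO, where 14% of all genes were. Of 20 adipocyte markers, 0 were called higher and 16 lower (median -2.03, and -2.45 with library totals), and without QKO 5, QKO 6 and MIGIRKO 6 the counts were 0 and 18. Their summed CPM was 3865 to 6085 in QKO (median 4774), against 4285 to 11090 in MIGIRKO (median 7922). The ranges overlapped through MIGIRKO 6 (4285) and the MIGIRKO 1 to 5 sums lay above all QKO sums. Of this list, no marker was at 0 in all 13 libraries. The fat cell hormone Adipoq (adiponectin) was 4.89 to 20.3 CPM in QKO (median 6.38), against 30.3 to 70.1 CPM in MIGIRKO (median 50.8), the lipid droplet protein Plin1 3.74 to 18.2 CPM in QKO (median 7.11), against 18.4 to 61.0 CPM in MIGIRKO (median 49.4), and Cfd, the adipocyte protease adipsin, 23.8 to 97.4 CPM in QKO (median 34.0), against 130.4 to 734 CPM in MIGIRKO (median 322). None of the 3 ranges overlapped, and the log2 differences were -2.48 ± 0.32, -2.48 ± 0.33 and -2.99 ± 0.41 (adjusted p = 1.4e-06, 1.8e-06 and 3.4e-06).

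Fibroblast and matrix markers had 0 of 29 called higher and 17 lower (median -0.51, and -0.89 with library totals). Their summed CPM was 7621 to 10890 in QKO (median 9609), against 9194 to 16010 in MIGIRKO (median 12275), with overlap. The matrix proteoglycan gene Lum was 24.1 to 66.2 CPM in QKO (median 38.0), against 58.2 to 115 CPM in MIGIRKO (median 84.5) (-1.04 ± 0.17, adjusted p = 1.6e-05). Schwann cell markers had 0 called higher and 12 lower of 17 (median -0.95), with summed CPM of 224 to 636 in QKO (median 302), against 489.5 to 869 in MIGIRKO (median 618). In the floxed controls the same list was higher in Qlox (median 1.01 for Qlox minus IRIGFRlox), with no member called. Summed CPM was 527 to 837 in Qlox and 239.5 to 345 in IRIGFRlox, which lay in other runs. Erbb3, the neuregulin receptor of Schwann cells, was 6.31 to 11.7 CPM in QKO (median 9.03), against 11.2 to 23.5 CPM in MIGIRKO (median 19.5) (-1.05 ± 0.18, adjusted p = 3.7e-05), and Ngfr, a receptor of Schwann cells without axon contact, 0.682 to 1.16 CPM in QKO (median 0.886), against 2.33 to 4.68 CPM in MIGIRKO (median 3.95), without overlap (-1.96 ± 0.37, adjusted p = 0.00014).

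Of 21 macrophage and immune markers, 0 were called higher and 3 lower (median -0.39, and -0.67 with library totals), about the 14% of all genes, and without QKO 5, QKO 6 and MIGIRKO 6 the lower count was 12. Their summed CPM was 415 to 3908 in QKO (median 584), against 1023 to 2682 in MIGIRKO (median 1241), the highest QKO sum being that of QKO 6. Cd74, the invariant chain of antigen presentation, was 45.0 to 251 CPM in QKO (median 90.9), against 175 to 376 CPM in MIGIRKO (median 213), with overlap (-1.10 ± 0.27, adjusted p = 0.0023), and the macrophage receptor Cd163 was 19.2 to 53.8 CPM in QKO (median 27.8), against 32.5 to 63.1 CPM in MIGIRKO (median 45.5), with overlap (-0.72 ± 0.19, adjusted p = 0.005). Satellite cells, the stem cells of muscle, had 0 markers called higher and 6 lower of 10 (median -0.55). Their summed CPM was 185 to 226 in QKO (median 189), against 229.9 to 315 in MIGIRKO (median 297), with no overlap. Their defining factor Pax7 was 1.45 to 7.15 CPM in QKO (median 2.94), against 4.93 to 9.13 CPM in MIGIRKO (median 5.83), with overlap (-0.81 ± 0.24, adjusted p = 0.011). Endothelial and mural markers had 0 called higher and 3 lower of 20 (median -0.15), also about the share of all genes, one of them the smooth muscle actin Acta2, at 59.0 to 92.2 CPM in QKO (median 71.9), against 109 to 172 CPM in MIGIRKO (median 144) (-0.90 ± 0.14, adjusted p = 1.3e-05). The 5 red cell markers had a median of 0.30, and Alas2, the heme enzyme of red cell precursors, was 3.14 to 9.40 CPM in QKO (median 7.44), against 2.27 to 6.71 CPM in MIGIRKO (median 4.00) (0.64 ± 0.39, adjusted p = 0.22). The part that these cells play in the differences of other genes was not tested.

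**Figure D5:**
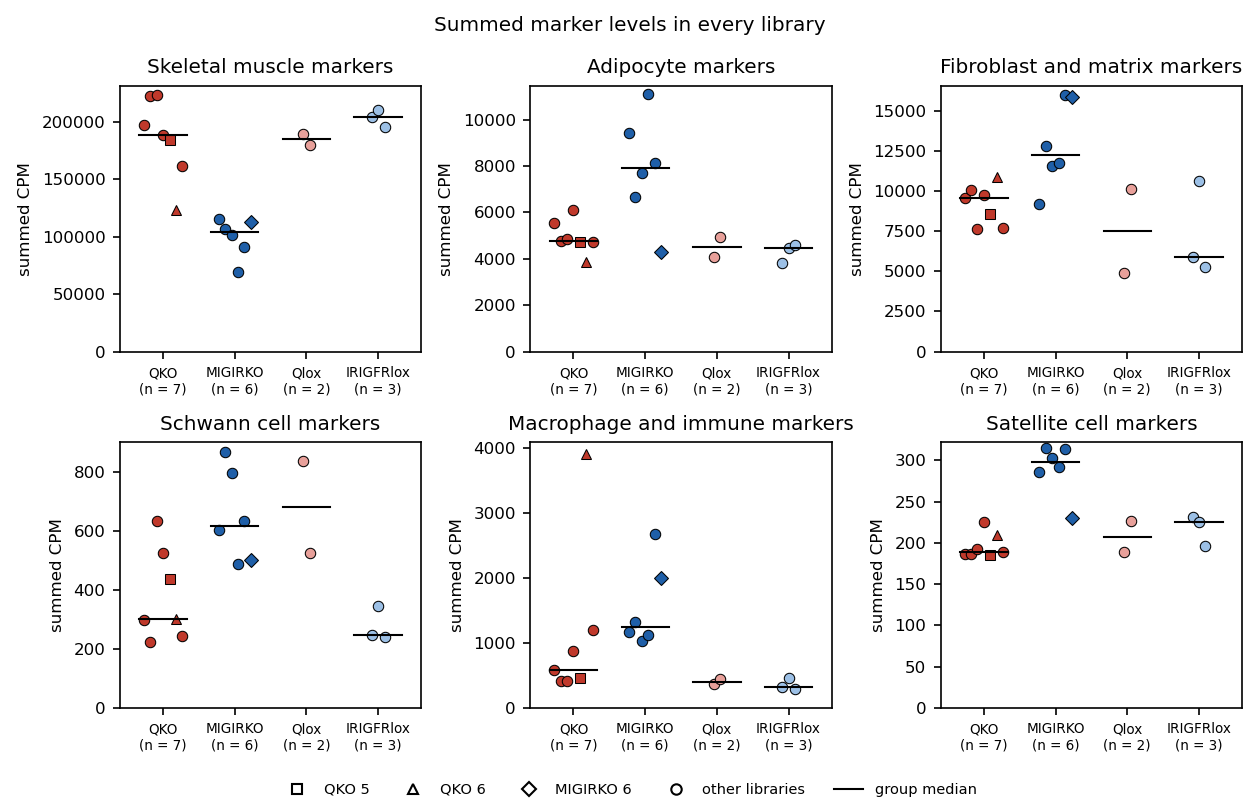
Summed CPM (linear axis) of marker lists in every library of QKO, MIGIRKO, Qlox and IRIGFRlox. Each point is 1 library, lines are group medians, and square, triangle and diamond mark QKO 5, QKO 6 and MIGIRKO 6. Muscle marker sums were higher in every QKO library than in every MIGIRKO library, adipocyte sums were lower in QKO than in MIGIRKO 1 to 5, and QKO 6 held the highest immune sum (3908).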

How the data were processed

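RNA of mixed quadriceps and gastrocnemius was sequenced in 34 libraries of 8 groups, of which the 7 QKO, 6 MIGIRKO, 2 Qlox and 3 IRIGFRlox libraries are described. The authors deposited a table of whole-number counts per gene for 46071 gene IDs. Per the submitters' processing notes, STAR, featureCounts and GRCm38.p4 were used. The strand setting and annotation release are not given in the sources used here.

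Symbols were matched for 45143 IDs. edgeR 4.0.16 (R 4.3.3) was run on the counts with TMM scaling, its expression filter over the 8 groups (13646 genes kept) and a robust quasi-likelihood fit with 1 mean per group over all 34 libraries, which then share 1 estimate of the spread. Genes were called at a Benjamini-Hochberg adjusted p under 0.05 over all genes tested. Qlox was compared with IRIGFRlox, and the difference of the changes (QKO minus Qlox, less MIGIRKO minus IRIGFRlox) was tested, in the same fit. On simulated counts for QKO against MIGIRKO over 13646 genes, it recovered 38.8% of 67 genes changed 1.5-fold, 70.1% of 67 changed 2-fold and 97% of 66 changed 4-fold, with 7 false calls. Far fewer genes were changed there than were called in the data, so these rates need not hold for the real comparison.

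The genes named are the targeted genes and Foxo6, the 12 called genes with the largest difference in each direction with an average log2 CPM of at least 1 (predicted genes and Riken clones left out), and up to 4 called members of each of 43 lists, by smallest adjusted p. Some genes that the rule picks are not reported here. Exceptions are said where they occur. Members and lists were chosen with earlier results of these data known. Alternatives were DESeq2 1.42.0 as test and for its size factors, limma-voom (limma 3.58.1), library totals, no filter, keeping genes that exceed 1 CPM in 3 or more libraries, the compared groups only, the run of library numbers as a block, and leaving out libraries. Lists were described by counts and medians, with no set test.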

Additional observations from a re-analysis of the deposited data

Results flagged for a closer look

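The groups of libraries tested were 244, 1 for each named gene in QKO and in MIGIRKO and 1 in each for the TMM factor. Of these, 25 held a library far from the rest of its group. Independent groups would give about 1 in 20 by chance. These groups share the same 13 libraries, so no excess over chance can be read from the count. In 15 of the 25 flagged groups the library was MIGIRKO 6. Its CPM values were Slc15a5 0.959, Cdh4 5.89, BC048679 0.822, Gbp2b 0.274, Btnl7-ps 0.685, Mlph 1.23, Kcne1l 1.92, Mirg 5.34, Dusp26 34.8, H19 989, Igf2 69.8, Etv5 23.1, Esrrb 3.83, Myh8 17.4 and Amd2 4.93. In MIGIRKO 4 the values apart from the group were Sdha 801, Myh4 15800 and Insig1 43.2 CPM, and in MIGIRKO 5 it was Vcp-rs 2.71 CPM. In QKO 6 they were Ndufv2 158, Ecsit 32.4 and Idh3a 725 CPM. In QKO 4 they were Chrnb1 59.1 and Slc1a3 10.5 CPM, and in QKO 2 it was Alas2 3.14 CPM.

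The change of QKO from Qlox and the change of MIGIRKO from IRIGFRlox differed by edgeR's test in 71 of the 121 named genes. Over all 13646 genes tested, 786 did (5.76%). Most named genes were picked by their difference between QKO and MIGIRKO, so a higher share among them is no separate support. Values are log2 differences of the changes, QKO change minus MIGIRKO change. They share the QKO and MIGIRKO libraries with the direct comparison. Above 0 they were Foxo6 2.33, Odf3l2 5, Slc15a5 6.86, Cdh4 5.09, Mss51 3.58, Col9a1 3.96, Dach2 5.06, Tmem132b 3.98, Kcng4 3.46, Lrtm2 3.36, BC048679 3.95, Grb14 3, Inppl1 0.65, Igfbp5 2.04, Rragd 1.05, Fbxo40 1.22, Asb2 1.82, Asb15 1.81, Asb10 2.19, Ulk2 0.96, Ndufs1 0.76, Ndufa8 1.11, Ndufv2 0.96, Ecsit 1.16, mt-Nd5 0.96, Mrpl55 0.98, Mdh2 1.08, Bckdk 1.08, Opa1 0.93, Mb 2.45, Rxrg 2.61, Esrrb 2.59, Cpt2 0.79, Tbc1d1 2.36, Fbp2 1.76, Pgm1 1.41, Phka1 1.48, Myh4 1.31, Cacna1s 0.97, Atp2a2 1.3, Mef2c 1.18, Mstn 2.52, Aqp4 2.27, Kcnq5 1.75, Fndc5 1.97, Ostn 2.7, Amd2 2.18 and Slc30a2 2.87. Below 0 they were Foxo1 -2.57, Foxo4 -3.84, Igf1r -1.09, Btnl7-ps -6.28, Dusp26 -3.46, Igfbp4 -0.95, Castor2 -1.41, Eif4ebp1 -1.49, Cdkn1c -2.18, Btg1 -1.17, Etv5 -1.34, Ctsl -1.28, Pnpla2 -1.34, Gpx3 -1.27, Slc43a1 -1.75, Slc36a2 -3.91, Slc1a3 -2.12, Adipoq -3.16, Plin1 -3.52, Cfd -3.29, Lum -1.4, Cd163 -1.36 and Acta2 -1.06. They rest on 2 Qlox and 3 IRIGFRlox libraries, which share no run, so differences between runs can enter these values.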

How the results depend on the processing

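The 4116 genes called became 6649 with library totals in place of TMM, with 754 higher and 5895 lower. Other settings gave 3243 when only the compared groups entered, 3462 of 29246 with no filter, 4106 with DESeq2's size factors, 4134 with the CPM filter, 4198 with DESeq2's test, 4254 with limma-voom and 4629 with the run as a block, which called 4041 of the 4116 again. Without QKO 5 and QKO 6 it was 5000. Leaving out 1 library gave 3508 (without MIGIRKO 5) to 5357 (without QKO 6) called, 1924 to 2486 higher and 1540 (without QKO 3) to 2871 (without QKO 6) lower. Qlox against IRIGFRlox called 4, and 19 with DESeq2, 2 with limma-voom, 60 with the compared groups only, 2 with the run block and 1 to 3 when leaving out 1 library. The difference of the changes called 786, and 1404 with library totals, 498 with no filter, 502 with the compared groups only, 1352 without QKO 5 and QKO 6, 1670 without those and MIGIRKO 6, and 113 (without Qlox 2) to 1384 (without QKO 6) when leaving out 1 library. It was 132 without Qlox 1, 450 without IRIGFRlox 1, 496 without IRIGFRlox 3 and 1201 without MIGIRKO 6. The causes were not tested.

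Of the 116 called genes named, 110 were called in the same direction under every alternative that tested them, and none reversed. The log2 difference of Odf3l2 was 6.70 without MIGIRKO 1, of Cdh4 6.22 without MIGIRKO 6 and of Sln -4.98 without QKO 4. No paired analysis was possible because no label pairs QKO with MIGIRKO animals, and within-run comparison used the runs of library numbers, as above. At 1.5-fold the self-test recovered 38.8% of the changed genes, so small differences may be missed. It changed far fewer genes than were called in the data, and its rate need not hold here.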
